A study of Mus musculus with 9 samples.

Results

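Chromatin remodellers and histone modifiers are the enzymes, with some of their complex partners, that move nucleosomes or add and remove acetyl and methyl groups on histones, on DNA and on some other proteins. Their genes were taken by name from 3 mouse array designs. A probe set was a member when it was annotated to exactly 1 gene symbol that begins with Smarc, Arid, Hdac, Sirt, Kdm, Kmt, Ezh, Dnmt, Prmt or Setd, or with Chd followed by a digit. This gave 197 of the 29131 probe sets with 1 symbol, and 91 of 15964 genes. The U74Av2 design held 63 member probe sets, U74Bv2 held 81, and U74Cv2 held 53. Because the choice was by name alone, it holds a few genes whose products act on other substrates, such as Setd3, which methylates actin.

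The RNA came from C2C12, an established mouse line of skeletal myoblasts that fuse into myotubes when serum is lowered. All 9 arrays carried total RNA of cells kept for 5 days in DMEM with 2% horse serum at 37 °C, on 3 arrays of each design. The labels name no genotype, no added compound and no undifferentiated cells, and they give 1 sample identifier to all arrays, so the spread between replicates may be technical. With 1 condition, the arrays show which member genes gave signal in differentiated cultures and how steadily, not which of them changed on differentiation. In bulk RNA, fewer cells that express a gene and less RNA of it per cell cannot be told apart.

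Remodellers are ATP-driven motors: the SWI/SNF complexes slide or evict nucleosomes, the ISWI motors space them, and the Chd motors share a chromodomain. Histone acetyl groups, linked with active genes, are removed by the zinc-dependent Hdac enzymes and by the NAD-dependent sirtuins. Histone methyl marks are written by SET-domain enzymes and arginine methyltransferases and erased by the Kdm demethylases, and their effect depends on the residue. In muscle, SWI/SNF works with the factor MyoD at muscle genes, class IIa deacetylases hold back the Mef2 factors, and Ezh2 keeps muscle genes silent in myoblasts. The Smarcd3 protein, also called Baf60c, is the SWI/SNF subunit known to bind MyoD.

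A member's signal was read against the background limit of its array, the 95th percentile of control probe sets whose sequences the sample lacks. A probe set was called detected when it lay above that limit on all 3 arrays of its design, and a gene was called detected when any of its probe sets passed. A multiple is the signal divided by the limit, averaged over 3 arrays and given with its SD. In addition, limma tested on each design whether log2 signal lay above log2 limit, one-sided, with Benjamini-Hochberg adjustment over all probe sets of the design and a threshold of 0.05. Each gene is shown by its probe set with the highest multiple. Signals depend on probe affinity, so neither signals nor multiples rank one gene against another.

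The myotube state was visible in all 8 of its markers, among them Myog at 66.7 ± 11.7 and Acta1 at 298 ± 30.9 times the limit (SD, n = 3). All 8 markers of cycling cells were detected as well, with Mki67 at 1.86 ± 0.320 and Mcm5 at 39.8 ± 6.82 times the limit, and what part such cells had in the values below was not tested. Of markers of other cell types, 0 of 3 measured for blood were detected, 1 of 4 for adipocytes, 2 of 5 for endothelium and 2 of 5 for neurons. In signal units, the limit ranged over 206 to 280 for the U74Av2 arrays, 430 to 963 for U74Bv2, and 725 to 1034 for U74Cv2. The number of arrays, 3 per design, limits the precision of every value.

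Most of the chromatin genes gave signal. Of the 91 genes, 75 (82.4%) were detected, against 62.0% of all genes on the 3 designs. Among the 11 name families, all 9 Hdac genes, all 7 Kmt genes and all 3 Ezh genes were detected, as were 12 of 13 Smarc genes. Detection was least complete among the arginine methyltransferases, with 4 of 8 Prmt genes (50%), and among the sirtuins, with 3 of 5 (60%). The sirtuin share was near the 62.0% of all genes. By probe set, so that genes with many do not weigh in by their highest, the median multiple was 4.35 over the U74Av2 members and 2.49 over all probe sets of that design with 1 symbol. It was 2.58 and 1.59 on U74Bv2, and 0.867 and 0.834 on U74Cv2, as a description.

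By probe set, 46 of 63 members (73.0%) were detected on U74Av2, where 60.5% of all probe sets with 1 symbol were. The member count on U74Bv2 was 49 of 81 (60.5%), beside 47.3% of all probe sets. On U74Cv2 it was 21 of 53 (39.6%), beside 35.7%, a share close to the background of that design. The limma test called 44 members on U74Av2 (69.8%, all probe sets 58.8%), 44 on U74Bv2 (54.3%, all 42.0%) and 18 on U74Cv2 (34.0%, all 31.3%). At the gene level it called 72 of 91, where 58.6% of all genes were called. Both readings called 71 genes: Arid3b, Dnmt3a, Setd1b and Sirt3 were detected without passing limma, and Prmt9 passed limma without being detected.

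**Figure D1:**
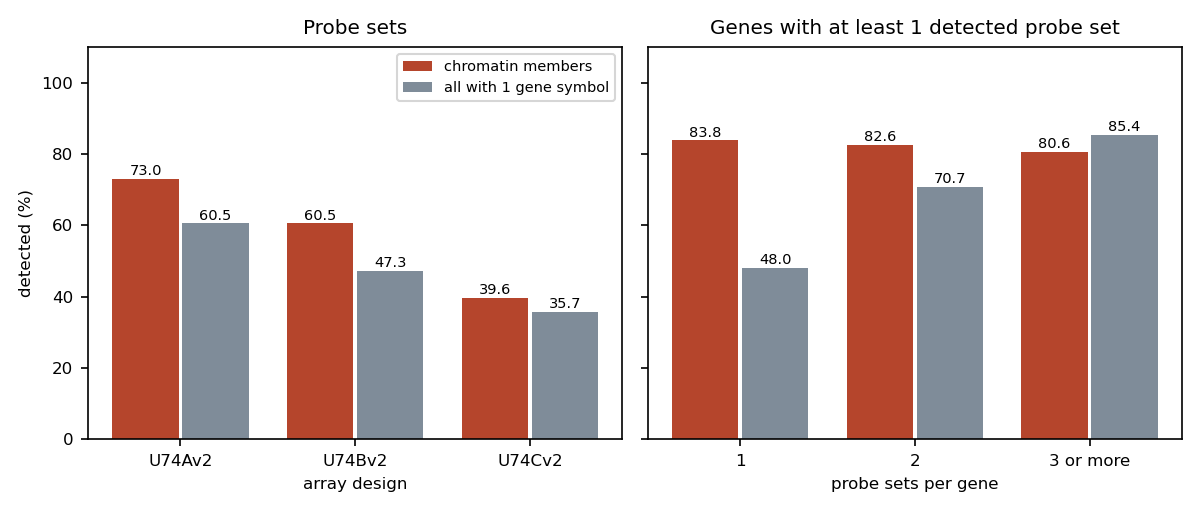
Percent of features above the background limit on all 3 arrays, for member probe sets and all probe sets with 1 symbol on each design, and for genes by their number of probe sets. The bars differ most for genes with 1 probe set, 83.8% for members and 48.0% for all genes, and among designs least on U74Cv2, 39.6% and 35.7%.

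The gap between members and all genes was widest where a gene had only 1 probe set. There, 31 of 37 member genes (83.8%) were detected, against 48.0% of all such genes. With exactly 2 probe sets the shares were 19 of 23 (82.6%) for members and 70.7% for all genes. With 3 or more they were 25 of 31 (80.6%) and 85.4%, so the members with many probe sets were detected no more often than other such genes. A gene with many probe sets has more chances to pass, and a member gene had up to 5.

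The SWI/SNF remodeller was represented almost throughout. Both of its ATPases, all 7 of its Smarc core and accessory subunits and all 3 of its Arid subunits were detected. For Smarca4, the Brg1 ATPase, probe set 98463_at read 3994, 4166 and 3872 signal units on the 3 U74Av2 arrays, 16.5 ± 2.56 times the limit (SD, n = 3). The signals lay within a narrow range on all 3 arrays, and 3 of 4 Smarca4 probe sets were detected. Smarca2, the alternative ATPase Brm, rested on 1 of 3 probe sets: 102384_at read 507, 389.8 and 478 on U74Av2, 1.91 ± 0.539 times the limit. Its highest-reading probe set, 171359_at on U74Cv2, gave 2056, 2151 and 679.9, with the third array below the limit of 786 while the other 2 were above theirs.

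Among the core subunits, Smarcb1, the Snf5 subunit, read 3303, 3979 and 3452 on U74Av2, 14.6 ± 1.34 times the limit. The scaffold subunits Smarcc1 and Smarcc2 stood at 11 ± 4.53 and 11.8 ± 5.18 times the limit on U74Bv2. The MyoD-binding subunit Smarcd3 read 8574, 8684 and 8449 on the U74Bv2 arrays, 15.4 ± 5.92 times the limit. Its signals were almost level, and the large SD of the multiple comes from the limit, which was 498, 430 and 963 on these arrays. Of its alternatives in the same position of the complex, Smarcd1 read 947, 1185 and 963 on U74Av2, 4.20 ± 0.424 times the limit, and Smarcd2 stood at 11.1 ± 2.33 times the limit with 161077_f_at. The 3 detected Smarcd2 probe sets all carry a suffix other than a plain _at, and the plain one, 160675_at, was not detected. The subunit Smarce1 read 1178, 711 and 1228, with the second array lowest but still above its limit of 280.

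The Arid subunits set which SWI/SNF complex forms, Arid1a and Arid1b the BAF form and Arid2 the PBAF form. Arid1a read 4568, 4899 and 4599.6 with its probe set 104331_at on U74Av2, 19.2 ± 2.60 times the limit. Arid1b and Arid2 stood at 3.90 ± 1.70 and 8.93 ± 3.00 times the limit on U74Bv2. The other Arid genes encode DNA-binding proteins outside that complex, and 4 of 6 were detected. Arid5b, a DNA-binding partner of the demethylase Phf2, read 9834, 9982 and 9550.3 on U74Bv2, 17.6 ± 6.90 times the limit, level across the arrays and detected with both its probe sets. Arid4b and Arid5a stood at 3.81 ± 1.92 and 3.62 ± 1.44 times the limit. Arid3b sat at the edge, with 362, 369 and 278 signal units on U74Av2, 1.39 ± 0.344 times the limit and an adjusted p of 0.130 by limma. Arid4a, a subunit of a Sin3 deacetylase complex, read 377, 276 and 410.0 on U74Bv2, below the limit on each array, and Arid3a was also not detected, at 0.701 times the limit.

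Of the ISWI motors, Smarca5 (Snf2h) stood at 7.86 ± 3.28 times the limit on U74Bv2 and Smarca1 (Snf2l) was not detected with any of 3 probe sets. The Smarca1 probe set shown read 1032, 941 and 613 on U74Cv2, 1.02 ± 0.261 times the limit, above it on 1 array. The remaining Smarc genes, Smarcad1 and Smarcal1, encode ATPases that act in heterochromatin upkeep and at stalled replication forks, and both were detected. Smarcad1 was uneven, with 438, 796 and 1043 on U74Av2. Its first array gave less than the other arrays, and all 3 were above the limit, at 2.13, 2.84 and 4.07 times.

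Among the Chd motors 6 of 7 were detected, Chd1l being the exception. Chd4, the motor of the NuRD complex that joins remodelling to deacetylation, read 22052, 22870.4 and 22788 on U74Av2 with probe set 99120_f_at, 92.5 ± 13.2 times the limit. Those signals were nearly level, but the suffix of that probe set marks possible cross-hybridisation. The plain Chd4 probe sets, 108356_at and 110040_at on U74Bv2, were also detected, at 5.57 ± 1.52 and 2.58 ± 1.11 times the limit. Chd1, which recognises methylated lysine 4 of histone H3, read 1217, 1597 and 1302 on U74Av2, 5.56 ± 0.436 times the limit. Chd2, which deposits the variant histone H3.3 with MyoD at muscle genes, read 4417, 3714 and 4147 on U74Bv2, 7.27 ± 2.57 times the limit. Chd7 and Chd8 stood at 4.81 ± 2.39 and 7.03 ± 1.75 times their limits. Chd5, better known from neurons and testis, read 3235, 2443 and 2182 on U74Cv2, 3.09 ± 0.299 times the limit. Chd1l, which responds to poly(ADP-ribose) at DNA damage, read 749, 654 and 525 on U74Bv2, above the limit on the first 2 arrays and below it on the third.

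**Figure D2:**
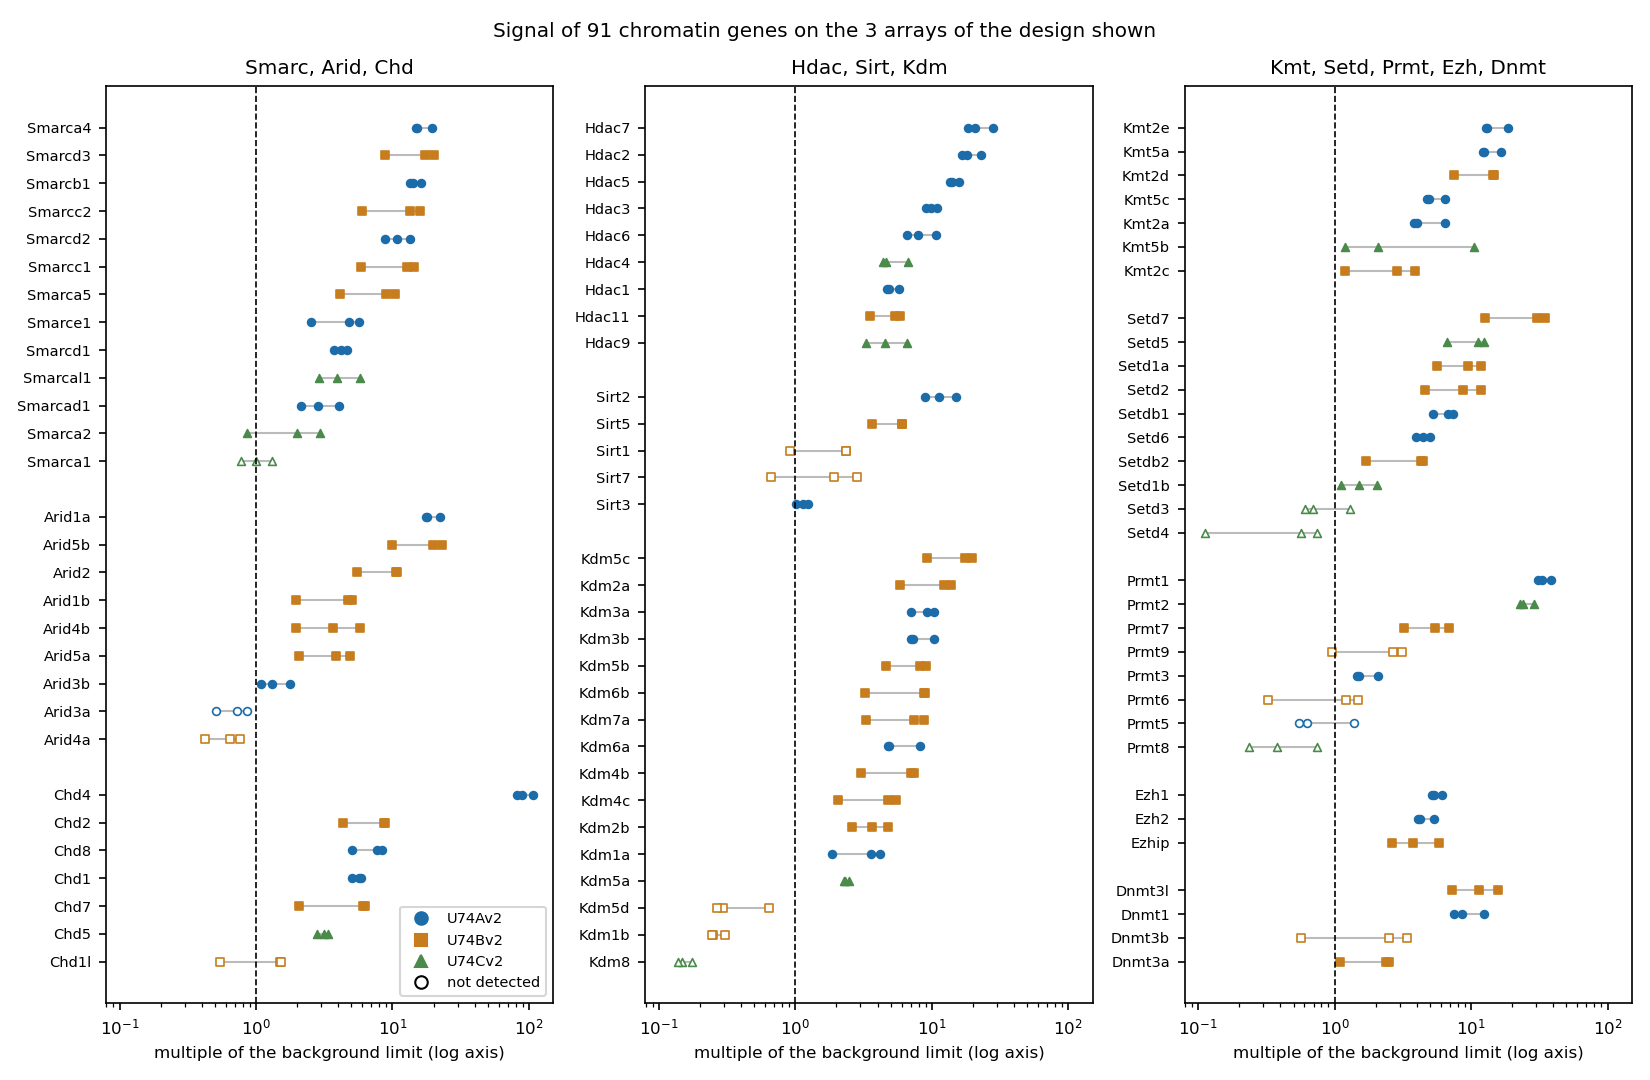
Multiple of the background limit on each of 3 arrays for the 91 member genes by family, on a log axis, with filled points for detected genes, marker and colour for the array design, and a dashed line at the limit (Smarca2 is filled because another of its probe sets was detected). Mean multiples of the Hdac genes lie between 4.78 and 22.5, while those of the Prmt genes lie on both sides of the limit, from 0.453 to 34.2.

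Every one of the 9 Hdac genes was detected, and each also passed limma. Class I holds the nuclear deacetylases of the main corepressor complexes. Hdac1 read 1180.4, 1306 and 1254 on U74Av2, 5.09 ± 0.568 times the limit. Its partner Hdac2 read 4703, 4669 and 4677, 19.2 ± 3.22 times the limit, with signals spanning only 4669 to 4703 units. Hdac3, the deacetylase of the NCoR complex, read 2229, 2524 and 2529, 9.90 ± 0.915 times the limit. Each of the 3 class I genes was measured by 1 probe set, so no second probe set checks these levels.

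Class IIa holds the deacetylases that bind Mef2 and leave the nucleus when phosphorylated, and all 4 on the arrays were detected. Hdac7 read 5784, 5188 and 5359.8 on U74Av2, 22.5 ± 5.00 times the limit. Hdac5 read 3242, 3912 and 3491, 14.4 ± 1.15 times the limit. Both were steady across arrays, with an SD of log2 signal of 0.08 for Hdac7 and 0.14 for Hdac5. Hdac4 read 4768, 4875 and 3459 on U74Cv2, 5.24 ± 1.29 times the limit, and 3 of 5 probe sets were detected. Hdac9, whose truncated form lacks the catalytic domain, read 3386, 3268 and 5147 on U74Cv2, 4.78 ± 1.65 times the limit, with the third array highest. Its only probe set, 165678_i_at, does not end in a plain _at, so no plain probe set measured Hdac9. The tubulin deacetylase Hdac6 stood at 8.40 ± 2.09 and the class IV enzyme Hdac11 at 4.92 ± 1.22 times the limit.

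Of the sirtuins, 3 of 5 (60%) were detected, near the 62.0% of all genes, and 2 passed limma. Sirt2, a mostly cytoplasmic deacetylase of tubulin and histone H4, read 3119, 2511 and 2875 on U74Av2, 11.8 ± 3.14 times the limit, and mitochondrial Sirt5 stood at 5.26 ± 1.38. Mitochondrial Sirt3 read 233, 347 and 259 on U74Av2, 1.13 ± 0.115 times the limit with an adjusted p of 0.493 by limma, so its signal could not be told from the limit. Sirt1, a nuclear deacetylase that restrains MyoD, read 1169, 1010.4 and 883 on U74Bv2, 1.87 ± 0.826 times the limit with an adjusted p of 0.131 by limma. It exceeded the limit on 2 arrays and missed it on the third, as did a second Sirt1 probe set, 115059_at, at 880.2, 868 and 715. The nucleolar sirtuin Sirt7 did the same, at 958, 1221 and 638 signal units.

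Of the 16 Kdm genes, 13 were detected. The H3K4 demethylases, which remove methyl groups from lysine 4 of histone H3 at promoters and enhancers, had 4 of 6 genes detected. Kdm1a (Lsd1), the flavin-dependent enzyme, read 855, 523 and 921 on U74Av2, 3.20 ± 1.19 times the limit, with the second array lowest. Its relative Kdm1b stood at 0.267 ± 0.0343 times the limit and was below it on every array. Kdm5b read 4555, 3534 and 4436 on U74Bv2, 7.32 ± 2.40 times the limit, and Kdm5a stood at 2.36 ± 0.107.

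The H3K4 demethylases Kdm5c and Kdm5d are a pair of X- and Y-linked homologues. Kdm5c read 8684, 8453 and 8947 with its probe set 113805_at on U74Bv2, 15.5 ± 5.46 times the limit. Only 1 of 4 Kdm5c probe sets was detected. None of the 3 Kdm5d probe sets lay above the limit on any array, and the one shown read 322, 128 and 256 on U74Bv2, 0.403 ± 0.210 times the limit. Uty, a Y-linked homologue of Kdm6a, was not detected either, at 0.194 ± 0.168 times the limit.

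Both H3K27 demethylases, which remove the Polycomb mark from lysine 27 of histone H3, were detected. Kdm6a (Utx) read 1678, 1339 and 1253 on U74Av2, 5.94 ± 1.92 times the limit, with 1 of 3 probe sets detected. Kdm6b (Jmjd3) read 4374, 3811 and 3125 on U74Bv2, 6.96 ± 3.22 times the limit. All 5 genes for H3K9 demethylases, Kdm3a, Kdm3b, Kdm4b, Kdm4c and Kdm7a, were detected, at 8.87, 8.23, 5.81, 4.07 and 6.49 times their limits. Of their 10 probe sets 5 were detected: Kdm7a rested on 1 of 4, and Kdm3a and Kdm3b each on 1 of 2. The H3K36 demethylases Kdm2a and Kdm2b were detected, at 10.7 ± 4.27 and 3.67 ± 1.10. Kdm8, a jumonji-domain protein, was far below the limit, with 152, 126 and 108 signal units on U74Cv2, 0.153 ± 0.0194 times the limit.

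The Kmt2 and Setd1 genes, named for enzymes that methylate lysine 4 of histone H3, were all detected, 6 of 6, and 5 passed limma. With the highest control as the limit, Setd1b was not detected and the count was 5. Kmt2d (Mll4), an enhancer enzyme needed in muscle differentiation, read 7167, 6370.4 and 7227 on U74Bv2, 12.2 ± 4.10 times the limit. Kmt2a (Mll1) read 1322, 1066 and 1036 on U74Av2, 4.76 ± 1.45 times the limit, with both probe sets detected. Kmt2c, the close relative of Kmt2d, stood nearer the limit, with 1420.0, 1670.3 and 1151 on U74Bv2 and an adjusted p of 0.0141 by limma. Kmt2e (Mll5), which is not known to have firm enzyme activity of its own, read 3859, 3605 and 3363 on U74Av2, 14.9 ± 3.33 times the limit, and 4 of 5 probe sets were detected. Setd1a stood at 8.94 ± 3.11 times the limit, and Setd1b at 1.55 ± 0.467 with an adjusted p of 0.132 by limma.

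Setd7, a lysine methyltransferase of histone H3 and of many other proteins, known to work with MyoD in muscle cells, read 15065, 14943 and 12122 on U74Bv2, 25.9 ± 11.7 times the limit. The third array was lowest, still far above its limit of 963. Setd2, the writer of trimethylated lysine 36 of histone H3 in gene bodies, read 4359, 5071 and 4396 on U74Bv2, 8.37 ± 3.63 times the limit, and its second probe set, 136609_at on U74Cv2, gave 1056, 1942 and 823. Setd5 read 6932, 8119 and 9695 on U74Cv2, 10.1 ± 2.98 times the limit. Setd6 stood at 4.48 ± 0.558. Setd3, the actin histidine methyltransferase, was not detected with any of 4 probe sets, the one shown standing at 0.867 ± 0.375 times the limit. Setd4 read 116, 409.7 and 580.4 on U74Cv2, below the limit on each array.

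Of the H3K9 methyltransferases, Setdb1 read 1521, 1901 and 1347 on U74Av2 with probe set 102771_at, 6.47 ± 1.10 times the limit, and Setdb2 stood at 3.46 ± 1.53. All 3 genes that write methylated lysine 20 of histone H4 were detected. Kmt5a, the monomethylase of dividing cells, stood at 13.7 ± 2.47 times the limit, and Kmt5c read 1328, 1341 and 1255 on U74Av2, 5.38 ± 0.935 times the limit. Kmt5b had the widest spread of any detected member, with 1237, 7633 and 1635 on U74Cv2. A single array carried that high value, and the SD of log2 signal was 1.41. Another Kmt5b probe set, 114401_at on U74Bv2, was steady at 2608, 2116 and 2167.

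The Polycomb methyltransferases of lysine 27 of histone H3 were both detected. Ezh1, the form known from resting and differentiated cells, read 1260.2, 1453 and 1365 on U74Av2, 5.54 ± 0.508 times the limit. Ezh2, the form known from dividing cells, read 1105, 1180.0 and 1054, 4.56 ± 0.701 times the limit. Ezhip, an inhibitor of the complex, read 1859, 2512 and 2541 on U74Bv2, 4.07 ± 1.63 times the limit. Each of these rested on 1 probe set, and each passed limma. The Ezh1 and Ezh2 signals were steady, with an SD of log2 signal of 0.10 and 0.08, and they were measured beside the detected markers of cycling cells.

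The arginine methyltransferases were divided, with 3 of 5 type I genes and 1 of 3 type II and III genes detected. Prmt1, the main asymmetric dimethylase, read 7922, 9264 and 7989 on U74Av2, 34.2 ± 3.82 times the limit. Prmt2 read 23783, 21007 and 18963 on U74Cv2, 25.4 ± 3.18 times the limit. Both were far above the limit on every array. Prmt7, a monomethylase and the only type II or III gene detected, stood at 5.18 ± 1.82 times the limit with 164325_f_at. Its other probe set, 164643_i_at, was below the limit at 0.293 ± 0.116. Both carry a suffix other than a plain _at, so no plain probe set measured Prmt7. A further type I gene, the ribosomal Prmt3, stood at 1.68 ± 0.351 times the limit, with an adjusted p of 0.0105 by limma. Prmt5, the main symmetric dimethylase, known to act with SWI/SNF at muscle genes, was detected with neither of its probe sets. The one on U74Av2 read 128, 152 and 356, above the limit on the third array alone, and the one on U74Cv2 read 233, 95.8 and 55.2. Prmt8, known from brain, stood at 0.453 ± 0.261 times the limit, and Prmt6 at 1.01 ± 0.607. Prmt9 read 1341, 1332 and 927 on U74Bv2, 2.25 ± 1.13 times the limit, above it on 2 of 3 arrays with an adjusted p of 0.04998 by limma, just inside the threshold.

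Among the DNA methyltransferases, Dnmt1, which copies methylation at replication, read 2549, 2113 and 2212 on U74Av2, 9.52 ± 2.55 times the limit. The de novo enzyme Dnmt3a was close to the limit: its probe set 113658_at read 1185, 1075 and 1045 on U74Bv2, 1.99 ± 0.784 times the limit with an adjusted p of 0.0805 by limma. The other 3 Dnmt3a probe sets were not detected. The second de novo enzyme, Dnmt3b, read 1241, 1459 and 547 on U74Bv2, above the limit on 2 arrays and below it on the third, and was not detected. Dnmt3l, a cofactor without enzyme activity that is best known from germ cells, read 5712, 6759 and 6961 on U74Bv2, 11.5 ± 4.25 times the limit. Its second probe set, 168155_f_at on U74Cv2, was below the limit on all 3 arrays at 362, 317 and 233 signal units, so the Dnmt3l signal rests on 1 of 2 probe sets.

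Probe sets for one gene often gave opposite calls. Of the 54 member genes with several probe sets, 9 (16.7%) had all of them detected, 35 (64.8%) were mixed and 10 (18.5%) had none. Over all 7645 genes with several probe sets, 21.7% had all detected, 55.4% were mixed and 22.9% had none. Where on the transcripts these probe sets lie was not examined. Members with any suffix other than a plain _at were detected in 14 of 37 cases (37.8%, all probe sets 42.7%). Those with a plain name were detected in 102 of 160 (63.8%, all 51.2%).

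The genes with the widest gaps between probe sets of one design are given by array, as calls on either side of the limit and not as folds, since probes differ in affinity. For Arid1a, 104331_at stood at 22.2, 17.5 and 17.9 times the limit on the 3 U74Av2 arrays and 104329_at at 0.170, 0.113 and 0.319. The remaining Arid1a probe set, 104330_g_at, lay between, at 3.57, 2.69 and 3.19. For Smarcd3 on U74Bv2, 108488_at and 164877_r_at gave 17.2, 20.2 and 8.77 against 0.258, 0.183 and 0.175. Smarcd3 was split on U74Cv2 too, where 168558_f_at stood at 3.53, 6.07 and 4.74 and 170318_i_at at 0.0689, 0.135 and 0.141. In each of these cases the groups of arrays did not overlap. The pairs were chosen for opposite calls and the widest gaps, so this follows largely from the choice. For Smarca4 on U74Av2, 98463_at stood at 19.4, 14.9 and 15.1 and 92687_at at 1.11, 0.327 and 0.130. For Kmt5c the pair 102686_at and 161440_r_at gave 6.45, 4.78 and 4.89 and 0.208, 0.109 and 0.276, and for Setdb1 the pair 102771_at and 95957_at gave 7.39, 6.78 and 5.25 and 0.282, 0.142 and 0.395. A member gene called detected here is therefore one for which some probe set gave signal, and 54 of the 91 genes (59.3%) had more than 50% of their probe sets detected, against 42.1% of all genes.

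**Figure D3:**
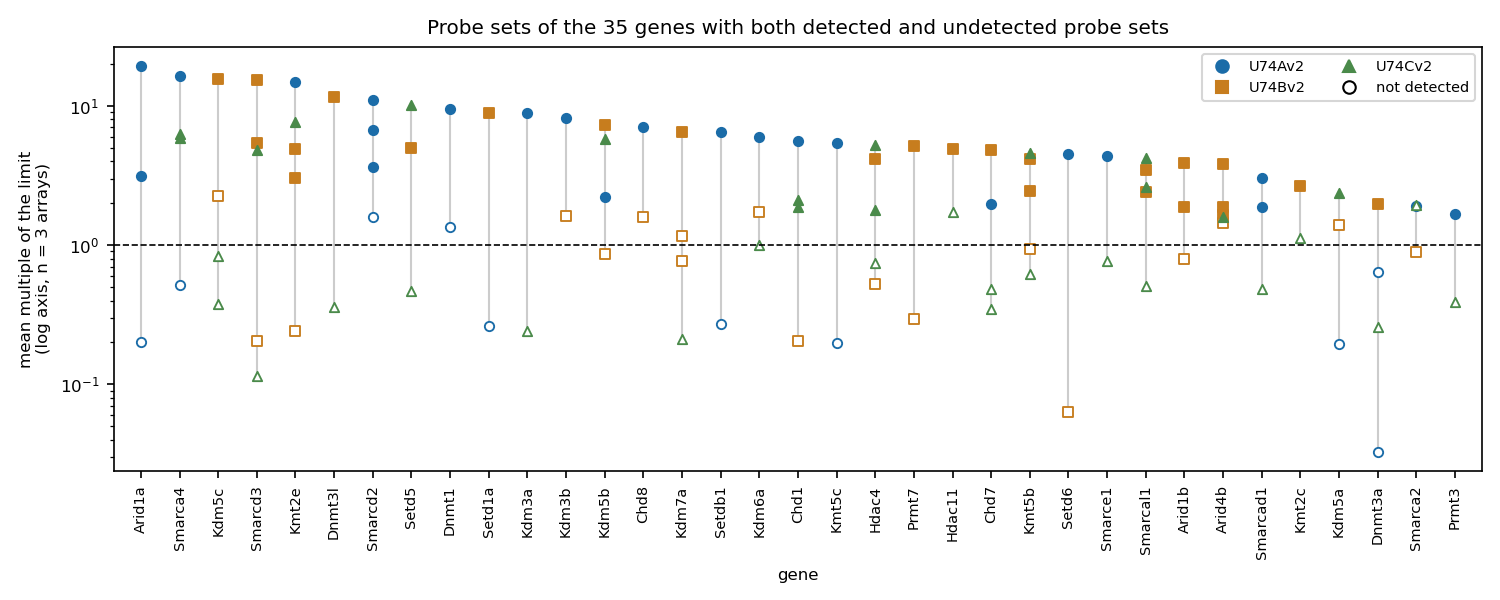
Mean multiple of the background limit over 3 arrays, on a log axis, for each probe set of the 35 member genes with both detected (filled) and undetected (open) probe sets, with marker and colour for the design and a dashed line at the limit. Each vertical line joins the probe sets of 1 gene, which for Arid1a reach from 0.201 to 19.2 times the limit.

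Of the 16 genes not detected, 7 had no probe set above the limit on any array: Arid3a, Arid4a, Kdm1b, Kdm5d, Kdm8, Prmt8 and Setd4. Another 3, Prmt5, Setd3 and Smarca1, had a probe set above it on 1 array at most. The other 6 were Chd1l, Dnmt3b, Prmt6, Prmt9, Sirt1 and Sirt7. Among their further probe sets, 92425_at for Chd1l and 115066_at for Dnmt3b were below the limit on every array. The probe set shown for each of the 6 genes missed the limit on the third U74Bv2 array alone, as did 115059_at for Sirt1. The limit of that array was 2.08 times the mean limit of the first 2. It was set by 2 control probe sets at 986 and 962 signal units, while the median of the absent controls, 187, was near the 191 and 163 of the other arrays.

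In all, 14 member probe sets of 13 genes lay above the limit on the first 2 U74Bv2 arrays and below it on the third. Their signals on the third array ranged from 0.405 to 1.35 times their own mean on the first 2, with a median of 0.780. Without that array, 81 of 91 member genes (89.0%) were detected, against 66.6% of all genes, and those 6 genes were the ones gained. With each array's median signal as the limit, 73 were detected (80.2%; all genes 59.2%): Arid3b, Kdm1a, Prmt3, Sirt3 and Smarcad1 dropped out, and Prmt9, Sirt1 and Smarca1 came in. Leaving out the array removes its signals as well as its limit. With the array median as the limit, Chd1l, Dnmt3b, Prmt6 and Sirt7 were still not detected. That setting lowered the limit of array 3 on U74Bv2 from 963 to 790. It also raised those of arrays 1 and 2, from 498 and 430 to 767 and 761. It therefore cannot show what the limit of array 3 alone did, which was not tested. The counts for Hdac, Kmt and Ezh did not change under either setting.

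**Figure D4:**
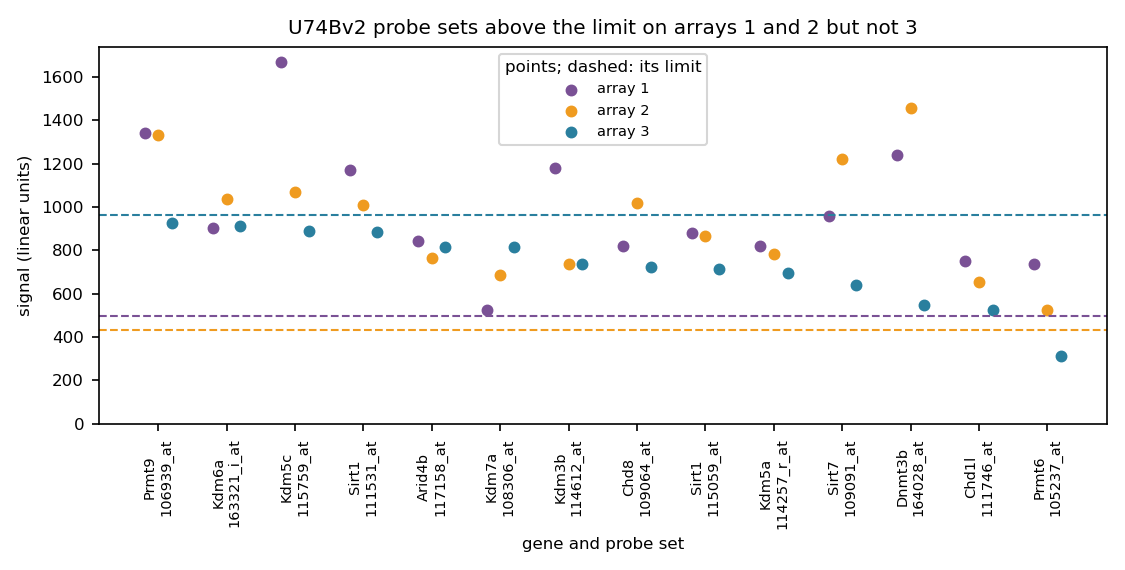
Signal on each U74Bv2 array, on a linear axis, of the 14 member probe sets above the background limit on arrays 1 and 2 but not on array 3, with the limit of each array as a dashed line in its colour. The limit is 963 on array 3, against 498 and 430 on arrays 1 and 2, while the signals on array 3 have a median of 0.780 times their mean on the first 2 arrays.

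The limma counts moved with single arrays on U74Bv2 as well. Without replicate 1 only 13 member probe sets (16.05%) passed limma on that design, and without replicate 2 only 25 (30.9%), against 44 with all arrays and 59 (72.8%) without replicate 3. The counts over the whole design moved with them, to 10.7%, 22.4% and 54.4% of all probe sets with the same replicates left out, against 42.0% with all arrays. What part the limits and the signals each had in these counts was not tested. Over detected members, log2 signal varied with a median SD of 0.133 for U74Av2 (all detected probe sets 0.154), 0.165 for U74Bv2 (all 0.176) and 0.247 for U74Cv2 (all 0.234). Over members not detected it was 0.666, 0.360 and 0.650 in the same order of designs. Across member probe sets, log2 signals of 2 arrays of a design correlated at r between 0.966 and 0.973 on U74Av2, 0.954 and 0.968 on U74Bv2, and 0.875 and 0.894 on U74Cv2. These correlations run across probe sets that share their probes' affinities and are a description.

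The least steady detected members, by SD of log2 signal, differed in which array stood out. On U74Av2 they were those of Smarcad1, Kdm1a and Smarce1, given above. On U74Bv2 they were 165080_r_at for Kdm2a, with 689.6, 653 and 1522, 107344_at for Arid4b, with 842, 673 and 1602, and 110170_at for Chd5, with 1252, 614 and 1159.8. The Kdm2a and Arid4b values were highest on the third array, and the Chd5 value was lowest on the second. On U74Cv2 they were those of Kmt5b, Setd2 and Hdac9.

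Promoters of the members were read from RefSeq on the mouse build GRCm38.p6, as windows of 300 bases, from 250 before to 50 after each annotated start, with the median taken where a gene had several. Windows were found for 75 of the 91 genes. Vertebrate promoters divide into those rich in the dinucleotide CG, typical of broadly used genes, and those poor in it. The detected members had a median of 24 CG per window (n = 61) and the members not detected 20.5 (n = 14), against 21 for all detected genes and 10 for all genes not detected. Fewer than 10 CG were found in 6 of 61 detected members (9.84%) and in 1 of 14 members not detected (7.14%). Over all genes the shares were 16.9% of those detected and 48.8% of those not detected. The medians of detected and undetected members lay closer together than the 2 medians over all genes, a difference that was not tested.

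**Figure D5:**
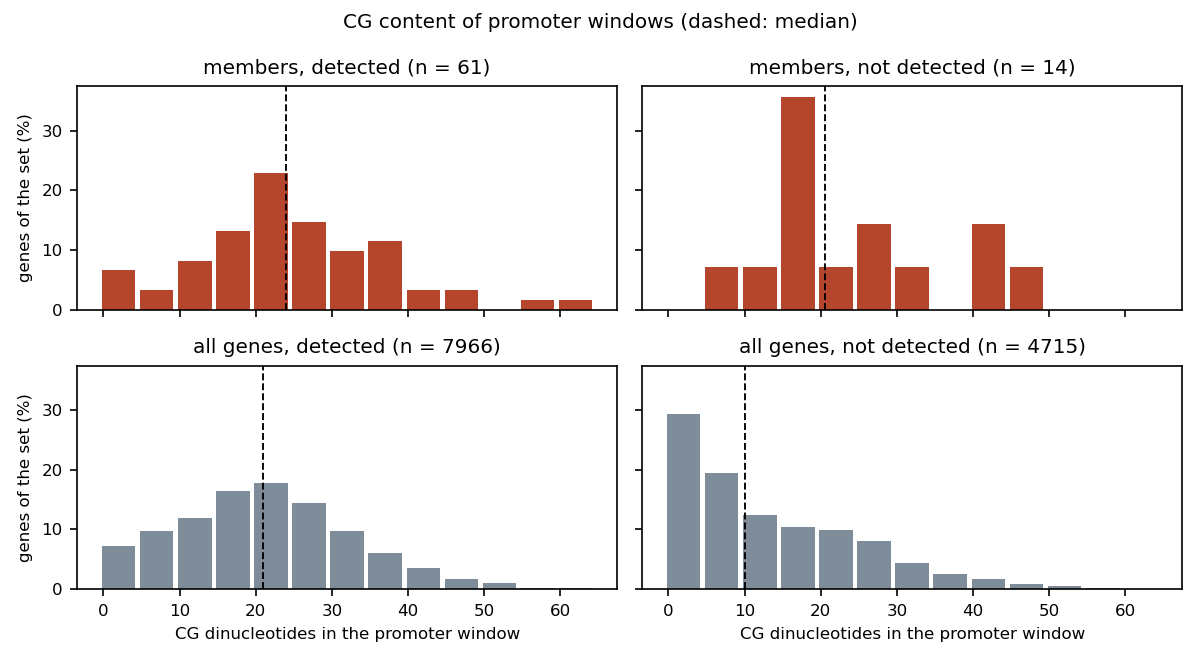
Distribution of the number of CG dinucleotides in 300-base promoter windows, for member genes and all genes, detected and not detected. The medians are 24 and 20.5 for the members and 21 and 10 for all genes.

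Short motifs were searched on both strands, and a gene was counted when any of its windows held the motif. Genes with several windows therefore had more chances, and the shares of all windows given below are not counted by gene. The E-box CAGCTG, the form preferred by MyoD and myogenin, was in 15 of 61 detected members (24.6%) and 1 of 14 not detected (7.14%), beside 18.1% and 19.4% of all genes and 16.3% of all 32851 windows. The E2F forms TTTGGCGC and TTTCCCGC, counted together, were in 5 of 61 detected members (8.20%) and 0 of 14 not detected, beside 3.34% and 2.04% of all genes and 1.56% of all windows. E2F factors drive genes of the cell cycle. The 5 members were Arid1a, Dnmt1, Ezh2, Kmt5c and Smarcd1. A match only says that the letters are there, and at this n the differences were not tested.

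Promoter sequences of 4 members are printed as examples chosen with their calls known, not as the ends of the range, which reached 65 CG per window in Kdm7a. They are the 250 bases before the start of each on its own strand, 5′ to 3′, with each CG in capitals. Smarcd3 (chr5:24602003-24602252, minus strand), the MyoD-binding SWI/SNF subunit, is CG-rich with 38 CG in the printed bases, and its E-box begins 237 bases before the start. Ezh2 (chr6:47595031-47595280, minus strand) has 23 CG, and its E2F form TTTGGCGC lies just after the start, outside the printed bases. Setd5 (chr6:113104685-113104934, plus strand) has 0 CG in the printed bases of its only window, and the gene gave signal at 10.1 ± 2.98 times the limit. Whether that annotated start is the one used in these cells was not examined. Sirt1 (chr10:63339036-63339285, minus strand) has 39 CG and was not detected.
Smarcd3: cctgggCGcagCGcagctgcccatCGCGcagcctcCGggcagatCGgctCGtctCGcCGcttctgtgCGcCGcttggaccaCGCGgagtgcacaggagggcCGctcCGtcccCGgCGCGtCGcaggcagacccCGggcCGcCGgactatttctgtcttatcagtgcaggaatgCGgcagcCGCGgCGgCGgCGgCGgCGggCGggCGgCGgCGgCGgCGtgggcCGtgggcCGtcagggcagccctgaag
Ezh2: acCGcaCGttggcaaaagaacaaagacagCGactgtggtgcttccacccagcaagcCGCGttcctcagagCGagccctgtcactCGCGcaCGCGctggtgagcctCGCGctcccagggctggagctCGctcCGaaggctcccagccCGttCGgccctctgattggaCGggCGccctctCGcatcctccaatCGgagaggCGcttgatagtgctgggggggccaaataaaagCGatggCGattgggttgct
Setd5: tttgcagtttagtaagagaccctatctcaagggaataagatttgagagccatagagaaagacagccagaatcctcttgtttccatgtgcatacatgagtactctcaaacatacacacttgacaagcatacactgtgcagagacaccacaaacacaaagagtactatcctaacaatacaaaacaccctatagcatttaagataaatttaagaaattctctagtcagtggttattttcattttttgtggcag
Sirt1: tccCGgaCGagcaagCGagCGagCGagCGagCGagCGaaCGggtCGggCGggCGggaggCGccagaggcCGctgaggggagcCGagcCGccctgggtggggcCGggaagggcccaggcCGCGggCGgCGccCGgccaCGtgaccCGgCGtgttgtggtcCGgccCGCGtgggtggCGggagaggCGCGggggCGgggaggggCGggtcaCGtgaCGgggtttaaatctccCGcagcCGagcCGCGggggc
The Setd5 bases hold 0 CG and the Sirt1 bases 39. Setd5 was called detected and Sirt1 was not, although the Sirt1 probe set shown missed the limit on the third U74Bv2 array alone. With the array median as the limit, Sirt1 was detected. These are picked examples and say nothing on CG and detection in general.

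The wider chromatin machinery, in a list of genes that were no members, also gave signal in most cases. Of 114 such genes measured, 98 (86.0%) were detected and 94 passed limma, read against the same 62.0% of all genes. For SWI/SNF, 13 of 14 further subunits were detected and 10 passed limma, the subunit not detected being Actl6b, the neuronal actin-like subunit. Of the deacetylase corepressor subunits all 16 measured were detected, among them the histone chaperones Rbbp4 at 34.8 ± 4.61 and Rbbp7 at 36.8 ± 5.27 times the limit. Polycomb partners were detected in 15 of 17 cases, and both partners of the Ezh enzymes were among them, Eed at 3.57 ± 1.01 and Suz12 at 5.98 ± 0.924 times the limit. The list of other histone methyltransferases had 14 of 16 detected, including Smyd1, a muscle-specific enzyme, at 4.30 ± 0.681 and the arginine methyltransferase Carm1 at 14.1 ± 2.82. The list of histone acetyltransferases, the enzymes opposite to the Hdac family, with some of their complex subunits, had 10 of 14 detected. Crebbp stood at 3.50 ± 1.31, and Ep300, Kat5, Kat6b and the subunit Tada3 were not detected. In the DNA methylation list 6 of 9 were detected, with Uhrf1, the partner of Dnmt1, at 4.25 ± 0.971, while the demethylation enzymes Tet1 and Tet2 were not detected.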

How the data were processed

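Total RNA of C2C12 cells in 1 condition was hybridised to 9 Affymetrix arrays, 3 replicates of each of 3 designs. The authors deposited linear intensity values, 1 per probe set and array. Per the submitters' processing notes these come from MAS5, whose version is not given in the sources used here. Each array had been scaled by itself, with a 2% trimmed mean between 1500.3 and 1501.0, so designs share a level but no normalization. Gene names came from the platform annotation, and all 197 member Entrez identifiers were found in RefSeq.

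The limit was the 95th percentile of 20, 20 and 17 absent control probe sets (Dap, Lys, Phe, Thr, Trpn and reverse-strand controls, without families above the design's median). limma 3.58.1 in R 4.3.3 tested log2(signal + 1) minus log2(limit) over all non-control probe sets of a design, with an intensity trend in the variance. The limit's own error is shared by all probe sets of an array and is not in these p-values. Counts and figures were made in Python 3.11.15 with pandas 2.3.3, numpy 2.4.6 and matplotlib 3.10.9. The test was also run on simulated data in which the limit had no error, so that run cannot show the effect of such error. Its outcome is not given here.

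Array values are given for a panel with known roles in muscle or cycling cells, for the highest and lowest multiple in each family, for the 5 widest gaps between probe sets, and for the 3 least steady detected probe sets of each design. Some further member genes were given values after these had been seen. The members and gene lists were chosen with earlier results of these data known. Alternatives were other limits, detection rules, normalization, pseudocounts, filters and left-out replicates.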

Additional observations from a re-analysis of the deposited data

How the results depend on the processing

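The count of member genes detected lay between 72 and 81 of 91 under other limits, detection on 2 of 3 arrays, quantile normalization, plain probe set names (72, with Hdac9 and Prmt7 then not measured and Smarcd2 not detected) and left-out replicates. It was 54 where more than 50% of a gene's probe sets had to be detected, which is within 1.5 times the main 75. The partner count lay between 67 and 105 of 114. The median SDs of log2 signal moved by less than the SD of these values over the detected member probe sets. That yardstick is wide, so passing it cannot show that the medians were stable. For U74Cv2 members it was 0.283, above the main median of 0.247, and any fall would have passed. The U74Av2 yardstick was 0.121, while the median there fell from 0.133 in the main setting to 0.0794 without replicate 2. The counts per design stayed within 1.5 times the main counts, except for limma on U74Bv2. There the members called ranged from 13 to 59 with a replicate left out (13 without replicate 1, 25 without replicate 2), against 44; the cause was not tested. With the mean of the 3 log2 limits used for each array that count was 58. Of 54 genes given by the naming rule, Kdm1a, Sirt3 and Smarcad1 were lost with the array's median as the limit, and Sirt3 with the highest control as the limit; among the other members that limit also lost Arid3b and Setd1b. The array's median as the limit also brought in Sirt1 and Smarca1. Without replicate 3, Chd1l, Dnmt3b and Sirt1 were gained. Signal over background limits what can be seen: a gene below the limit may be expressed at a level these probes do not resolve. No paired analysis was possible because the designs carry different probe sets, and no test compares them. For the 42 member genes on more than 1 design, the probe set shown was the highest over those designs, whose limits differ.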
